A study of Mus musculus with 3 samples.

Results

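The genes described here encode the proteins of the mitochondrial ribosome. They were taken by symbol, as all genes named Mrpl or Mrps followed by a number among the probe sets that the platform annotation pairs with 1 gene symbol. They came to 31 of the 10191 genes so named, 18 of the large subunit (Mrpl) and 13 of the small subunit (Mrps), measured with 32 probe sets. CD8+ T cells of 3 populations were compared, CXCR3+ innate, CXCR3- innate and naive, with 1 Affymetrix array each and values as log2 RMA expression. All 3 populations came from spleen and lymph nodes of naive C57BL/6 mice with a CXCR3-GFP reporter, housed pathogen-free, and were sorted on a cell sorter after staining for surface markers that included CD44 and CD8. RNA came from about 3 to 5 mice, called CIBER mice in the extraction notes. The animals' age is not given in the sources used here. Innate is the submitters' word for the populations set apart from naive cells.

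Mitochondria keep a ribosome of their own, which translates the few proteins encoded by mitochondrial DNA, all of them parts of the respiratory chain and the ATP synthase. Its RNAs are made inside the organelle, whereas its proteins are encoded in the nucleus, made in the cytosol and imported. Many descend from bacterial ribosomal proteins and others have no bacterial counterpart. In T cells, mitochondrial translation is known to matter most when cells leave rest and build up respiration.

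Because each population had 1 array, no difference could be set against a spread between replicates, and no test, standard error or p-value was possible. A gene was called in a comparison if it differed 1.5-fold or more and its higher value reached the all-gene median of its array, 7.63 for CXCR3+ innate, 7.63 for CXCR3- innate and 7.65 for naive. Most of the members read close to the lower end of the table, in which the highest value of every probe set was at least 7.0. Only 14 of the 31, 10 large and 4 small subunit genes, reached an array median on any array, compared with 53.4% of all genes. The highest value of 11 members exceeded 7.71, the median level of 541 olfactory and vomeronasal receptor genes, which T cells are not known to use. Those genes have other probes and passed the same floor, so their level is not the background of the members. Exactly equal values on all 3 arrays were found for 8 members, and for 34.6% of all genes, so a difference of 0 does not show equal expression. Fewer cells of a type and less RNA per cell cannot be told apart in such bulk samples.

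The identity of the cells was checked on their markers. Of 8 CD8+ T cell markers, 6 were in the table, and Cd8a read 10.14, 9.77 and 10.43 in CXCR3+ innate, CXCR3- innate and naive cells. All 6 read lower in the CXCR3- innate than in the naive population, with a median difference of -0.41. The sort gene Cxcr3 read 7.97, 7.82 and 7.57, and Cd44 8.30, 7.88 and 7.24. Of other cell types, 2 of 12 B cell, 4 of 12 myeloid, 2 of 7 NK cell, 3 of 7 CD4 and regulatory T cell, 1 of 7 gamma-delta T cell and 1 of 6 erythroid and platelet markers had values. Defining markers such as Lyz2, Cd4 and Trdc were among those without one. Summed on the linear scale over the arrays, the measured ones ranged from 400.0 to 473 for B cells, 796 to 862 for myeloid cells, 280 to 392 for NK cells and 475 to 547 for CD4 cells. The B cell, myeloid, NK and CD4 sums were each highest in CXCR3- innate cells, the NK sum by little, at 392 beside 387 in CXCR3+ innate cells. These sums rest on few genes. They were Ighm and H2-Ab1 for B cells, Ncr1 and Eomes for NK cells, and Foxp3, Tnfrsf4 and Ctla4 for CD4 cells. The myeloid genes were Itgam, Fcgr3, Adgre1 and S100a9. In CXCR3- innate minus naive, 2 myeloid and 2 CD4 genes were higher, and the others of these lists were equal. In CXCR3+ innate minus naive, 1 NK gene was higher by 0.85 and the other was equal. Whether the CD8+ T cells themselves expressed these genes was not tested. Whether other cells were present, and their part in the results below, was not tested.

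The comparison of CXCR3- innate with naive cells held the largest difference of any member. Mrpl24, which encodes the counterpart of a bacterial protein that starts the assembly of the large subunit and lies near the exit of the nascent chain, read 8.57 in naive, 8.04 in CXCR3+ innate and 7.77 in CXCR3- innate cells. The naive array was the highest and the CXCR3- innate array the lowest. The difference of CXCR3- innate minus naive was -0.80, a value 1.74-fold lower. No member reached 2-fold there, beside 0.245% of all genes. Mrpl24 was the only member called by the 1.5-fold rule, 1 of 31, in a comparison in which 1.7% of all genes were called in either direction and 1.6% as lower. Under every scaling tried its difference stayed between -0.80 and -0.72.

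Mrpl52, a large subunit protein without a bacterial counterpart, read 7.67 in naive, 7.64 in CXCR3+ innate and 7.19 in CXCR3- innate cells. Here the CXCR3- innate array alone was low, 1.39-fold below naive. Mrps15, the counterpart of a bacterial protein that binds the central part of the small subunit's RNA, read 7.95 in naive, 7.77 in CXCR3+ innate and 7.60 in CXCR3- innate cells, 1.28-fold lower in CXCR3- innate than in naive cells. With Mrpl24, these were the 3 members past a smaller size of 0.32 on the log2 scale in this comparison, under the same level rule, or 9.68% of the members, where 8.44% of all genes passed in either direction and 7.56% as lower.

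**Figure D1:**
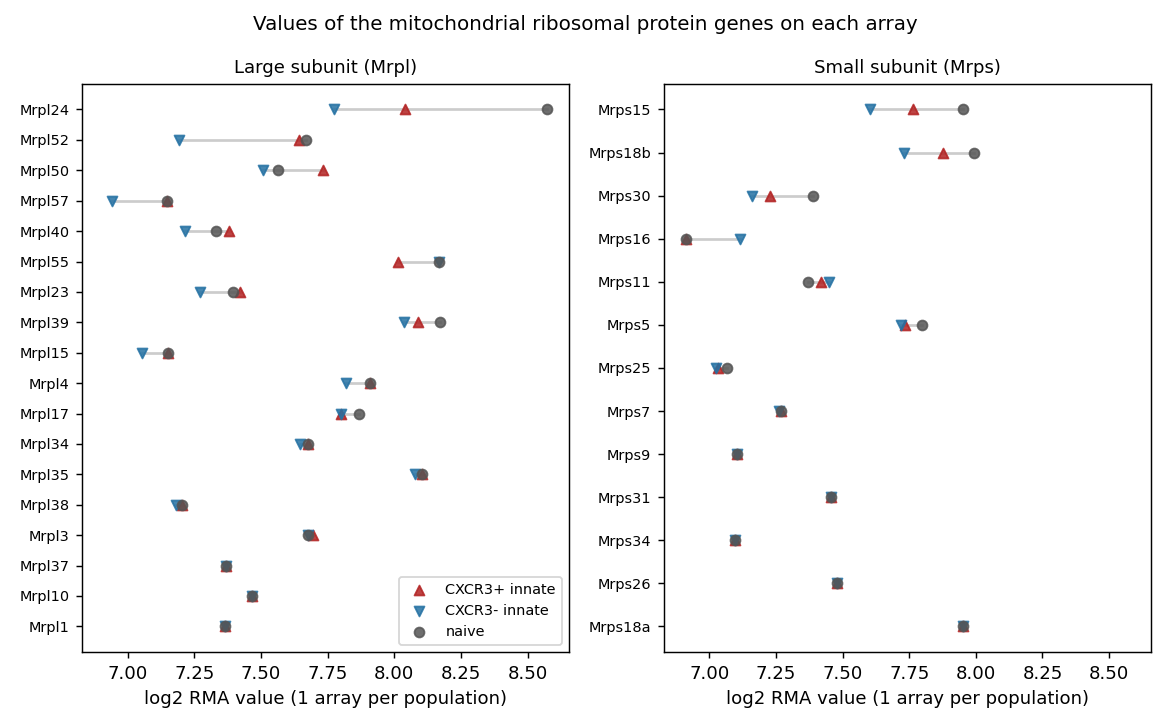
Log2 RMA value of each of the 18 large subunit (left) and 13 small subunit genes (right) on the CXCR3+ innate (triangle up), CXCR3- innate (triangle down) and naive (circle) arrays, 1 array per population, with a grey line from the lowest to the highest value and genes sorted by that range. Mrpl24 spans 0.80, Mrpl52 0.48 and Mrps15 0.35, and at the bottom of the panels 8 genes have the same value on every array.

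Mrps18b belongs to the family of bacterial S18 counterparts, of which mammals have several. As the mean of its 2 probe sets it read 7.99 in naive, 7.88 in CXCR3+ innate and 7.73 in CXCR3- innate cells. The probe sets did not behave alike. The first read 8.33, 8.10 and 7.81 in the same order, a difference of -0.52 for CXCR3- innate minus naive, and the second read 7.66 on all 3 arrays. The mean difference of -0.26 is thus that of 1 probe set averaged with 0.

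To show the control regions of the members with the largest differences, the 250 bases before the RefSeq start site are printed for Mrpl24 (chr3:87919294-87919543, plus strand, GRCm38.p6), Mrpl52 (chr14:54426659-54426908, plus strand), Mrps15 (chr4:126046678-126046927, plus strand) and Mrps18b (chr17:35916441-35916690, minus strand). Mrpl17 (chr7:105811088-105811337, minus strand) is added because its window held 2 of the motifs searched. Capitals mark matches to CGCATGC, a core of the site bound by nuclear respiratory factor NRF1, or to CCGGAAG, a core bound by ETS factors, on either strand. AGATGGC, a core of the YY1 site, was searched too.
Mrpl24: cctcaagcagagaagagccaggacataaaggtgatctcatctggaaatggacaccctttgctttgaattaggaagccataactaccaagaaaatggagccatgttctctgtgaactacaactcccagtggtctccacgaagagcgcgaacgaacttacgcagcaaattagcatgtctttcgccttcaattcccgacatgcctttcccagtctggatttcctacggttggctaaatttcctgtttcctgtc
Mrpl52: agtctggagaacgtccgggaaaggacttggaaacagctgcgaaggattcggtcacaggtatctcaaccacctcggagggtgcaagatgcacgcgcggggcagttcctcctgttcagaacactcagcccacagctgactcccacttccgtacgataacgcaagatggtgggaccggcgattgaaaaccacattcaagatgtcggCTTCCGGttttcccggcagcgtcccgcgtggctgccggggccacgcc
Mrps15: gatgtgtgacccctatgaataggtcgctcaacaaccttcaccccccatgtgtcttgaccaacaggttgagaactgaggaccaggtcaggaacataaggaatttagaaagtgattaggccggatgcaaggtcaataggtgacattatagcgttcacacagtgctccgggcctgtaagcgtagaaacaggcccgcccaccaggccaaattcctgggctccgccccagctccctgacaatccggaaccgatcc
Mrps18b: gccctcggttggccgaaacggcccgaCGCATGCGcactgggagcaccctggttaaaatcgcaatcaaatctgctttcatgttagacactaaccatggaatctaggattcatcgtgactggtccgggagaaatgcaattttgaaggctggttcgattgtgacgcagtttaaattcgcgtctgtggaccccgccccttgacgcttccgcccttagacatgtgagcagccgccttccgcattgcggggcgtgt
Mrpl17: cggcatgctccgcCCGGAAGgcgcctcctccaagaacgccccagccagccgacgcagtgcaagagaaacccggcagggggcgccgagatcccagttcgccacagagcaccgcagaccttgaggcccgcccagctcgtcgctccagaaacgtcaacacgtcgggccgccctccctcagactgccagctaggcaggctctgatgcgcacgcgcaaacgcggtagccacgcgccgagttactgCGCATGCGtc
Mrpl24 and Mrps15 held none of the 3 motifs in these windows. Mrpl52 held 1 ETS core on the opposite strand. Mrps18b held the NRF1 core on both strands in overlapping positions, and Mrpl17 held it likewise together with 1 ETS core.

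Windows of 27 of the 31 members matched by symbol, with 28 start sites. The ETS core was in the windows of 7 of these genes (25.9%), compared with 10.2% of 17492 protein-coding genes and 29.7% of 64 cytosolic ribosomal protein genes. The 7 were Mrpl3, Mrpl17, Mrpl34, Mrpl52, Mrps16, Mrps18a and Mrps26. The NRF1 core was in the windows of 4 members (14.8%), Mrpl10, Mrpl17, Mrpl39 and Mrps18b, compared with 4.24% of protein-coding genes and 1.56% of cytosolic ribosomal protein genes. The YY1 core was found in Mrps11 only, 3.70% beside 4.59%. Only bases before the start site were searched, so a core of any kind that spans it or lies after it was not counted. Over all 69 genes of the family in the promoter table, measured or not, the shares were 26.1% for ETS, 11.6% for NRF1 and 7.25% for YY1. Among genes with a match, Mrpl52, Mrps18b and Mrpl39 differed by -0.48, -0.26 and -0.14 in CXCR3- innate minus naive. Mrps16 and Mrps11 differed by 0.20 and 0.08, and others such as Mrpl10, Mrps18a and Mrps26 were equal on all arrays. Whether a match goes with a difference was not tested. A match of letters is not evidence of binding.

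Over the whole large subunit, 13 of 18 genes read lower in CXCR3- innate than in naive cells, none read higher and 5 were equal, with a median of -0.06. Over all genes 21.6% read higher, 36.3% lower and 42.1% equal, with a median of 0.00. Other scalings broke the ties, and 6 of the 18 then read higher after quantile normalization, beside 5885 of 10191 genes, and 3 after cyclic loess, beside 4604. Centring used the median of each array over all probe sets, not the all-gene median used to call genes. It adds 0.03 to every difference of this comparison. That put the 5 equal genes and 2 with smaller differences above 0, 7 in all, beside 6886 of all genes. The median of the large subunit stayed below 0 under each. Near the exit of the nascent chain, Mrpl23 differed by -0.12 and Mrpl39 by -0.14. Among proteins without a bacterial counterpart, Mrpl57 differed by -0.21, from 7.15 to 6.94, and Mrpl40 by -0.12. Mrpl4 and Mrpl15, counterparts of bacterial proteins, differed by -0.09 and -0.10. Mrpl10, at the base of the stalk that recruits translation factors, read 7.47 on every array. Mrpl1 at 7.36 and Mrpl37 at 7.37 were likewise equal throughout.

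In the small subunit the same comparison had 6 genes lower, 2 higher and 5 equal, with a median of 0.00, which centring moved to 0.03 together with that of all genes. Mrps16 went the other way from most members. It read 6.91 in naive and CXCR3+ innate cells and 7.11 in CXCR3- innate cells, below the array median on each. Mrps11, on the platform of the small subunit, differed by 0.08. Mrps5, which lines the path of the messenger RNA, differed by -0.08 and Mrps25 by -0.04. Mrps9, Mrps26, Mrps31 and Mrps34 were equal on all arrays. Mrps30 and Mrps18a carry small subunit names but lie in the large subunit of the mammalian ribosome. Mrps30 read 7.39 in naive, 7.23 in CXCR3+ innate and 7.16 in CXCR3- innate cells, and Mrps18a 7.95 on every array. Counted where they lie, they left the medians at -0.06 for the large and 0.00 for the small subunit. The difference between the subunits was not tested.

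How many of these small differences stand out was judged against all genes. Of the 31 members, 9 (29.0%) were lower in CXCR3- innate than in naive cells by at least 0.1 on the log2 scale, and 24.4% of all genes were. Among genes that reached an array median, the shares were 5 of 14 members (35.7%) and 38.0% of 5437 genes. That filter uses the same values, for the members and for all genes alike. On the deposited scale the members thus held about as many lower genes of that size as the array at large. That reading moved with the scaling. The share of lower members and of all genes was 29.0% and 18.1% after quantile normalization, 32.3% and 22.2% after cyclic loess, and 22.6% and 21.5% after centring. Quantile normalization also evened out the split over all genes, to 16.6% higher and 18.1% lower. Upward by at least 0.1 were 1 member (3.23%), Mrps16, and 9.76% of all genes.

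**Figure D2:**
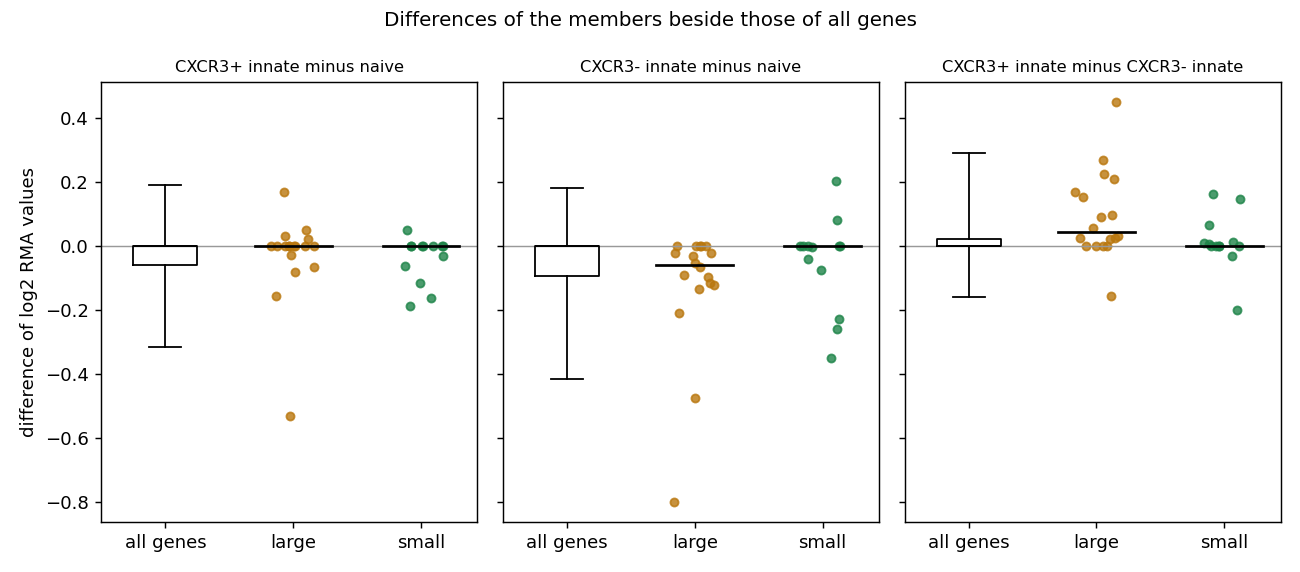
Differences of log2 RMA values in the 3 comparisons, with 1 point per member and a black bar at the median of each subunit. The box shows the interquartile range of all 10191 genes and its whiskers the 5th and 95th percentiles. Most points lie within the whiskers, and Mrpl24 lies below them at -0.53 and -0.80 in the comparisons with naive cells.

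CXCR3+ innate and naive values differed little for most members, as they did for most genes, and most members read near the floor of the table. No member was called by the 1.5-fold rule, where 1.2% of all genes were, and none reached 2-fold, beside 0.236%. Of the 31, 16 (51.6%) were equal, 10 (32.3%) lower and 5 (16.1%) higher, beside 45.0% equal, 34.2% lower and 20.7% higher over all genes. Centring adds 0.02 to every difference here and put the 16 equal members above 0, 21 in all, beside 6985 of the 10191 genes. On the deposited scale the medians were 0.00 for the large and 0.00 for the small subunit. Mrpl24 again had the largest difference, at -0.53 or 1.45-fold lower, and was the only member past 0.32, where 5.74% of all genes passed in either direction and 4.26% as lower. Mrps15 differed by -0.19, Mrps30 by -0.16, Mrps18b by -0.12 and Mrpl17 by -0.07. Mrpl55, a large subunit protein without a bacterial counterpart, read 8.17 in naive and CXCR3- innate cells and 8.01 in CXCR3+ innate cells, the only member that was lowest in CXCR3+ innate cells.

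Against this direction, Mrpl50, another protein particular to mitochondria, read 7.73 in CXCR3+ innate, 7.56 in naive and 7.51 in CXCR3- innate cells. Its difference of 0.17 was the highest of this comparison. Mrpl40 followed at 0.05 and Mrps11 at 0.05. By at least 0.1, 5 members (16.1%) were lower, beside 20.3% of all genes, and 1 (3.23%) was higher, beside 9.43%. Both comparisons with naive cells share the naive array, so a member with a high or low naive value differs in both.

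Between the innate populations no member was called by the 1.5-fold rule either, where 1.08% of all genes were, and none reached 2-fold, beside 0.157%. CXCR3+ innate values were above CXCR3- innate values in 19 members, below in 3 and equal in 9. Over all genes 28.7% were above, 22.3% below and 49.0% equal. Centring lowers every difference of this comparison by the same small amount, which put equal genes below 0, and left 16 members above 0 and 15 below, beside 2693 and 7498 of all genes. The median was 0.04 for the large subunit and 0.00 for the small subunit. Mrpl52 had the largest difference, at 0.45 or 1.36-fold, and was the only member past 0.32, where 4.56% of all genes passed in either direction and 3.72% as higher. It was followed by Mrpl24 at 0.27, Mrpl50 at 0.22, Mrpl57 at 0.21, Mrpl40 at 0.17 and Mrpl23 at 0.15. In the small subunit Mrps15 differed by 0.16 and Mrps18b by 0.15. Mrps16 at -0.20, Mrpl55 at -0.16 and Mrps11 at -0.03 were the 3 members that were lower in CXCR3+ innate cells. By at least 0.1, 8 members (25.8%) were higher, beside 15.4% of all genes, and 2 (6.45%) were lower, beside 9.09%.

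Put in order over the 3 arrays, 18 of the 31 members (58.1%) had their lowest value on the CXCR3- innate array, ties left out, and 20.7% of all genes did. In the large subunit they were 12 of 18, and in the small subunit 6 of 13. Many of these gaps were small. Mrpl34, Mrpl35, Mrpl38 and Mrps7 were lowest there by 0.03, 0.02, 0.02 and 0.01. In 7 members (22.6%) the CXCR3- innate value was at least 0.1 below both others, beside 11.4% of all genes. They were Mrpl23, Mrpl24, Mrpl40, Mrpl52, Mrpl57, Mrps15 and Mrps18b. The count of members lowest on that array was 18 after quantile normalization, beside 24.9% of all genes, and 22 after cyclic loess, beside 42.0%. After centring it was 13, beside 18.2%, with 10 in the large and 3 in the small subunit.

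**Figure D3:**
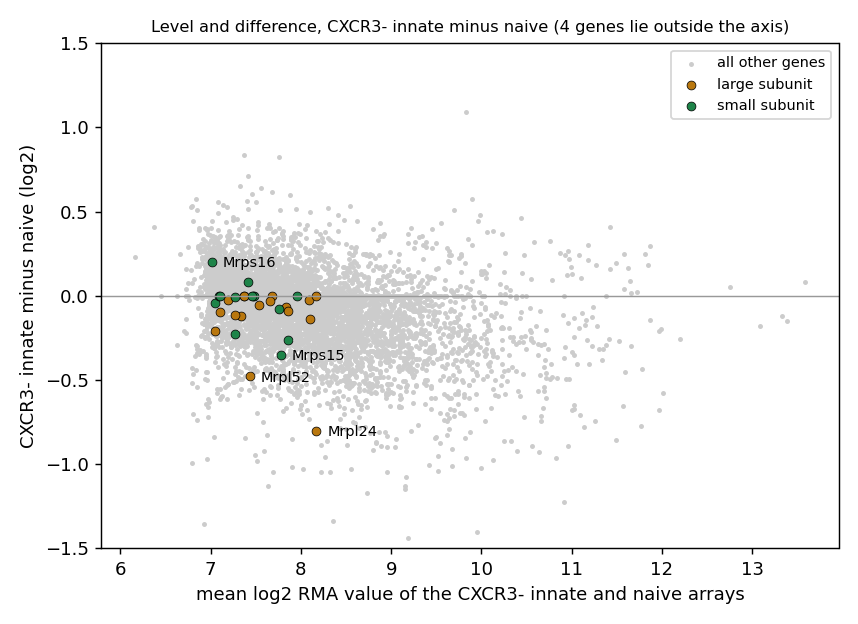
Difference of CXCR3- innate minus naive plotted against the mean log2 RMA value of both arrays, with 1 point per gene, members in colour and all other genes in grey. The members lie in the left part of the plot, and Mrpl24 at -0.80, Mrpl52 at -0.48 and Mrps15 at -0.35 lie lowest among them.

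Members that reached an array median, a filter that favours genes high on some array, were also described apart. Mrpl52 and Mrps15 passed it on the CXCR3+ innate and naive arrays only, and Mrpl50 on the CXCR3+ innate array only. Lower CXCR3- innate values among the members that passed are thus partly built in. In CXCR3- innate minus naive, the 14 such members had a median of -0.07, with 11 below 0, none above and 3 equal. The other 17 had a median of 0.00, with 8 below, 2 above and 7 equal. All genes parted by the same filter had medians of -0.01 and 0.00. Of those that reached a median, 52.0% were below 0, 18.8% above and 29.2% equal. Of the others, 18.3% were below 0, 24.9% above and 56.8% equal. By descent, the 18 members with a bacterial counterpart had a median of -0.03 and the 13 particular to mitochondria one of -0.04.

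Other genes that the mitochondrial ribosome depends on were next described from fixed lists. Of 6 mitochondrial ribosomal proteins with other symbols, 3 were measured. Ptcd3, a pentatricopeptide repeat protein of the small subunit, read 8.81 in CXCR3+ innate and naive cells and 8.29 in CXCR3- innate cells, a difference of -0.52. Gadd45gip1, of the large subunit, differed by -0.09. Of mitochondrial translation factors, 4 of 18 were measured. Tufm, the elongation factor that delivers aminoacyl-tRNAs, differed by 0.02 in CXCR3- innate and 0.13 in CXCR3+ innate minus naive. Mrrf, which recycles ribosomes, differed by -0.19 in both. Oxa1l, which inserts new chains into the inner membrane, differed by -0.11 in CXCR3- innate and -0.06 in CXCR3+ innate minus naive. No gene of these lists reached 1.5-fold in any comparison.

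Mitochondrial aminoacyl-tRNA synthetases, which charge tRNAs with their amino acids, had 15 of 22 members measured, of which 10 were equal in CXCR3- innate minus naive. Kars, at -0.28, and Gars, at -0.05, serve the cytosol too. Genes of ribosome assembly and RNA modification had 20 of 35 measured, with 6 lower, none higher and 14 equal. Eral1, a GTPase that binds the small subunit's RNA, differed by -0.23, Mpv17l2 by -0.21 and Grsf1, an RNA-binding protein of mitochondrial RNA granules, by -0.15. Genes of mitochondrial DNA maintenance and transcription had 10 of 18 measured, with 4 lower and 6 equal. The oligoribonuclease gene Rexo2 differed by -0.54, from 8.20 to 7.66. Pnpt1, an RNA-degrading enzyme, differed by -0.42, from 7.30 to 6.87, and was below the array median on every array. The medians of these lists were 0.00 in every comparison. Of 30 import genes, 21 were measured, and CXCR3- innate minus naive had a median of -0.03. Hspa9, the chaperone that pulls proteins into the matrix, differed by -0.61, from 9.24 to 8.63, and was the only import gene past 1.5-fold. Timm8a1 differed by 0.40, from 6.80 to 7.20, and was below the array median on every array. No gene encoded by mitochondrial DNA was analysed here.

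**Figure D4:**
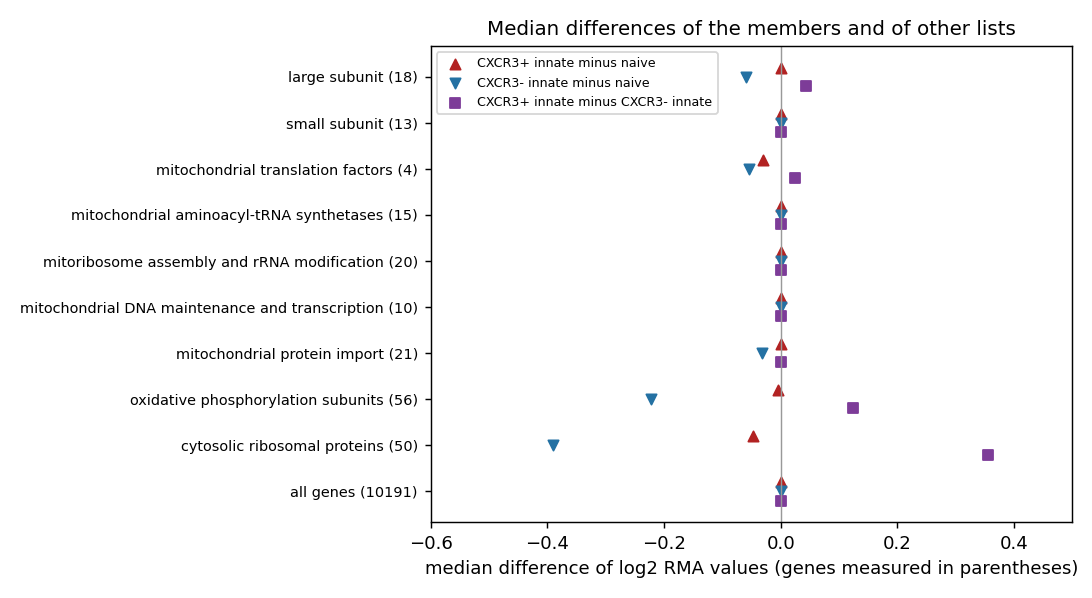
Median difference of log2 RMA values in each list, with 1 symbol per comparison and the number of measured genes in parentheses. The subunits of the mitochondrial ribosome lie between -0.06 and 0.04, whereas the cytosolic ribosomal proteins lie at -0.39 and oxidative phosphorylation subunits at -0.22 for CXCR3- innate minus naive. The lists were not matched for level.

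The families nearest in function differed by more, but the families were not matched for level. The median level of the members was 7.47 in naive cells, below the array median. Over all genes, the median of CXCR3- innate minus naive was -0.01 for those at or above an array median and 0.00 for the others. The means were -0.10 and 0.0006 in that order. That split favours genes high on some array. The part of level in the order of the families was not tested. In CXCR3- innate minus naive, 42 of 50 cytosolic ribosomal protein genes (84.0%), paralogs included, were lower by at least 0.1, and 34 of 56 nuclear-encoded oxidative phosphorylation subunits (60.7%) were, beside 29.0% of the mitochondrial ribosomal protein genes and 24.4% of all genes. By the 1.5-fold rule 14 of the 50 cytosolic ribosomal protein genes, 4 of the 56 oxidative phosphorylation subunits and 1 of the 31 mitochondrial ribosomal protein genes were lower, beside 1.6% of all genes. The rule asks for a value at or above an array median, which only 14 of the 31 members reached. Their medians were -0.39, -0.22 and -0.03. In CXCR3+ innate minus naive the medians were -0.05, -0.004 and 0.00, and between the innate populations 0.36, 0.12 and 0.02. These families were set side by side without a test, and their order was kept under every scaling tried, for example with medians of -0.32 for the cytosolic ribosomal proteins, -0.12 for the oxidative phosphorylation subunits and -0.02 for the members after quantile normalization.

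**Figure D5:**
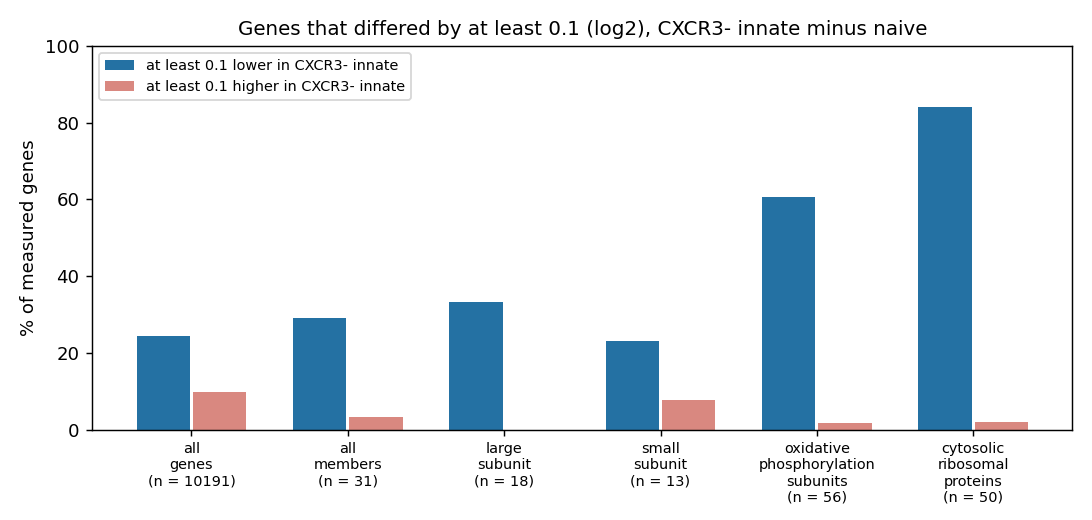
Percentage of measured genes whose log2 RMA value was lower or higher by at least 0.1 in the CXCR3- innate population against naive cells, for all genes, the members and related families, with the number of genes under each pair of bars. The lower share is 29.0% for the members and 24.4% for all genes, and 84.0% for cytosolic ribosomal proteins. The families were not matched for level.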

How the data were processed

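The authors deposited log2 expression values for 3 arrays. The submitters' processing notes list RMA and Affymetrix Expression Console, and versions are not given in the sources used here. As a method, RMA corrects background, gives the arrays a common distribution and summarises each probe set by median polish. The table held 12417 probe sets: 10576 with 1 gene symbol in the platform annotation, 1108 with several and 733 with none. Only the first kind named genes, and the probe sets of 273 genes with several were averaged. All 31 members matched the RefSeq table of GRCm38.p6 by symbol, which lists 78 protein-coding genes of the family. A further 9 symbols lay only on probe sets with several symbols, and 38 were on none analysed here. Promoter windows came from RefSeq, GRCm38.p6. No build is named for the array.

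With 1 array per population there was no test, and groups came from the sample titles. The members and lists were chosen with earlier results of these data known. Named were members past the size rule, the 5 largest differences per subunit and comparison, the 3 highest and 3 lowest levels per subunit, those of the stalk, exit, decoding and misnamed groups, the 3 farthest against the median, and up to 4 genes per other list. Other members named, such as those equal on all arrays, were chosen after their values were seen. Python 3.11.15, pandas 2.3.3, numpy 2.4.6, R 4.3.3 and limma 3.58.1 were used. The number of arrays limits the precision.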

Additional observations from a re-analysis of the deposited data

How the results depend on the processing

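Medians of the members were recomputed after quantile normalization, cyclic loess, centring on the array median and an addition of 16 on the linear scale, with the probe set of the highest mean or every probe set by itself, over bright genes only, and, chosen after seeing the data, with probe sets of several symbols. A change under 0.1 was taken as small, since there are no replicates. The large subunit median of CXCR3- innate minus naive ranged from -0.07 to -0.03, and that of all members from -0.08 to -0.001. The small subunit median of the same comparison was -0.17 over bright genes only, of which there are 4, and 0.03 after centring, as was that of all genes. The choice of bright genes uses the same values. Every other median moved by less than 0.1. The medians of 0.00 in CXCR3+ innate minus naive became 0.02 after centring, as did that of all genes.

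The count of called members stayed at 0 in CXCR3+ innate minus naive, at 1 for the CXCR3- innate population against naive and at 0 between the innate populations, except with other folds. With 0.32 on the log2 scale as the size it was 1, 3 and 1 in that order, and at 2-fold 0 in each. No paired analysis was possible because each population had 1 array, and leaving out an array removes a population. Values near the floor of the table limit what differences can be seen.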

Other observations

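Of the 10 probe sets that carry a member's symbol beside another gene's, the pair of Mrpl53 and Ccdc142 had the largest difference, reading 7.67 in naive, 7.57 in CXCR3+ innate and 7.33 in CXCR3- innate cells, a difference of -0.34 for CXCR3- innate minus naive. The signal cannot be divided between the genes. The pair of Mrpl30 and Gm6238 differed by -0.11 and that of Mrpl33 and Babam2 by -0.10, whereas the pair of Mrpl44 and Wdfy1 differed by 0.05. The pair of Mrps34 and Nme3 differed by -0.07, while the probe set of Mrps34 alone read 7.10 on every array. The pairs of Mrpl41 with Dph7 and of Mrps27 with 6430562O15Rik were equal on all arrays.

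Genes of growth were described from 2 fixed lists. Of 20 genes of Myc and the nucleolus, where cytosolic ribosomes are made, 18 were measured. In CXCR3- innate minus naive 15 (83.3%) were lower, 1 was higher and 2 were equal, with a median of -0.17. Over all genes 36.3% were lower, 21.6% higher and 42.1% equal. Neither list was matched for level. Nop58, a core protein of small nucleolar particles, differed by -0.62, Gnl3 by -0.57, Ppan by -0.54 and Ncl, which encodes nucleolin, by -0.52. In CXCR3+ innate minus naive the median was -0.01. Of 26 cell cycle genes 14 were measured, with a median of 0.00 in every comparison and no gene past 0.32 under the level rule. Aurkb, a mitotic kinase, read 6.61 in naive, 6.90 in CXCR3- innate and 7.10 in CXCR3+ innate cells.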
